A study of Homo sapiens with 12 samples.

Results

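Heat shock proteins are chaperones, proteins that bind unfolded or newly made polypeptides and help them reach or keep their shape. HSP70 proteins (here HSPA8, HSPA1A and HSPA1B) bind short hydrophobic stretches in a cycle driven by ATP, which J-domain proteins such as DNAJB1 start and nucleotide exchange factors such as the HSP110 protein HSPH1 reset. Clients that need late-stage folding, many kinases and steroid receptors among them, pass to HSP90 (HSP90AA1 and HSP90AB1), while small heat shock proteins such as HSPB1 hold unfolded proteins without ATP. The transcription factor HSF1 raises most of these genes when proteins unfold, and breast cancer cells are known for high chaperone levels without heat.

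The report covers 10 genes, chosen by symbol: HSPA8, HSPA1A, HSPA1B, HSPH1, DNAJB1, HSPB1, HSP90AA1, HSP90AB1, HSPD1 and HSPE1, of 64252 gene IDs in the tables. All 10 were found, 8 had counts and all 8 passed the filter on low counts. They were picked as cytosolic heat shock proteins, but HSPD1 and HSPE1 encode the HSP60 and HSP10 chaperonin of the mitochondrial matrix, and are described here by their gene names.

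Poly(A) RNA was sequenced from cells of the line MDA-MB-231, which came from a human breast cancer without hormone receptors or HER2 amplification, after transfection with a plasmid for Dicer, the ribonuclease that cuts microRNA precursors. The plasmid carried Dicer with mutation 1, mutation 2 or mutation 3, known from the labels by number alone, or wild-type Dicer, and 3 libraries were made per group (12 in all). Every group therefore received lipofectamine and a Dicer plasmid on top of the cells' own DICER1 gene, no cells without a plasmid were analysed here, and nothing in the labels tells whether libraries of a group are separate cultures. The p-values below thus rest on a spread that may be technical. The comparisons ask how these transcripts differed with each mutant Dicer from those with the wild-type protein, and between mutants.

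Library totals ran from 13507341 to 17078273 counts. Wild-type replicate 1 stood apart: 3326 and 3374 of 15094 tested genes lay over 2-fold from wild-type replicates 2 and 3, against 243 between those 2 libraries and 269 to 373 within a mutation group. Each result that rests on wild type is therefore given with this library, and some are given again without it. A value given once is not thereby unchanged. Without this library, HSPD1 with mutation 2 went from 0.71 to 0.93 on the log2 scale. HSP90AB1 went from 0.87 to 1.05 with mutation 1 and from 0.52 to 0.70 with mutation 3. Some counts of gene lists moved as well. The plot of log2 fold changes over wild type shows both fits. DICER1, which counts plasmid and genomic transcripts together, averaged 43.7 CPM with mutation 1, 45.3 CPM with mutation 2, 39.4 CPM with mutation 3 and 39.99 ± 10.99 CPM in wild type, and no difference passed the test with all libraries. Without wild-type replicate 1, DICER1 with mutation 3 differed from wild type by -0.23 on the log2 scale (adjusted p = 0.000372). Mutation 2 over mutation 3 was then 0.20 (adjusted p = 0.000559), and mutation 1 over mutation 3 was 0.15 (adjusted p = 0.017). Mitochondrially encoded mRNAs held 1.27 to 1.36% of counts with mutation 1, 4.48 to 5.57% with mutation 2, 4.81 to 5.05% with mutation 3 and 1.34, 5.04 and 5.09% in wild type; leaving them out of the scaling changed no call on the 8 counted genes. All 10 genes listed as high in this line, such as VIM and CD44, exceeded 1 CPM in every group, with a summed level of 10330 to 10420 CPM with mutation 1, 7180 to 7230 with mutation 2, 8488 to 8570 with mutation 3 and 7566 to 7650 in wild type. The 10 genes listed as low or off in the line summed to 157.1 to 161.3 CPM with mutation 1, 131.8 to 139.3 with mutation 2, 111.9 to 115.5 with mutation 3 and 92.06 to 171.3 in wild type, with KRT5 at 0 in every group. Not all of the 10 were off. ERBB2 averaged 89.0, 96.2 and 70.9 CPM with mutations 1, 2 and 3, and 88.6 CPM in wild type. EPCAM and GATA3 averaged 30.6 and 28.3 CPM with mutation 1, and 9.30 and 14.0 CPM in wild type. The epithelial cadherin CDH1 had 11.05 CPM with mutation 1, and 13.85, 1.17 and 1.23 CPM in wild-type replicates 1, 2 and 3. The 10 markers of other cell types summed to 33.5 to 36.9 CPM with mutation 1, 12.3 to 15.4 with mutation 2, 19.4 to 22.4 with mutation 3 and 23.6 to 34.4 in wild type, with CD3E and MYH11 among those at 0 in every group. The collagen gene COL1A1 gave most of the mutant sums, at 34.3, 12.8 and 20.1 CPM with mutations 1, 2 and 3, against 17.8 CPM in wild type. PECAM1, an endothelial marker, averaged 0.634, 0.61 and 0.784 CPM with mutations 1, 2 and 3, against 2.76, 17.1 and 15.3 CPM in the wild-type replicates. The part of these markers in the results was not tested.

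HSF1 binds heat shock elements, arrays of the unit GAA (or TTC) in alternating directions, so the promoter letters of the 10 genes are shown first. RefSeq windows of 250 bases before to 50 after a transcription start (GRCh38.p14) were searched on both strands for 3 units, GAANNTTCNNGAA or its reverse complement TTCNNGAANNTTC. This motif lay in a window of 4 of the 10 genes (HSPA8, HSP90AA1, HSP90AB1 and HSPD1), against 166 of 27305 genes with a window (0.608%). The shorter 2-unit motif, GAANNTTC or TTCNNGAA, which is contained in the longer one, lay in a window of 8 of the 10 genes and of 16.2% of all genes. HSPH1 and HSPE1 had neither inside their windows. The stretches that hold the matches are shown 5′ to 3′ on the gene's strand, with matching letters in capitals.
HSPA8 far element: gcgagcttGAAAGTTCCAGAAcgctgcgg
HSPA8 near element: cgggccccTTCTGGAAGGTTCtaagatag
HSPA1A: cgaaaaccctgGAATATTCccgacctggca
HSPA1B: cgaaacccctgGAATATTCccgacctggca
DNAJB1 far element: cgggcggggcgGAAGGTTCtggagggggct
DNAJB1 near element: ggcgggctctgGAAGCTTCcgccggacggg
HSPB1: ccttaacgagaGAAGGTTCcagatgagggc
HSP90AA1: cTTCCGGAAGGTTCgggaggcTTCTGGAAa
HSP90AB1 far element: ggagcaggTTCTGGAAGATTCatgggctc
HSP90AB1 near element: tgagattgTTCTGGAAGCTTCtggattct
HSPD1: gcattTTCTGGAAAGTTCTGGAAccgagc

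These stretches lie at chr11:123062346-123062374 and chr11:123062171-123062199 (HSPA8, minus strand), chr6:31815426-31815455 (HSPA1A, plus) and chr6:31827622-31827651 (HSPA1B, plus). Those of DNAJB1 are chr19:14518456-14518485 and chr19:14518426-14518455 (minus), and that of HSPB1 is chr7:76302480-76302509 (plus). The HSP90 stretches are chr14:102087104-102087133 (HSP90AA1, minus), chr6:44247770-44247798 and chr6:44247823-44247851 (HSP90AB1, plus), and that of HSPD1 is chr2:197500062-197500090 (minus). HSPA8 and HSP90AB1 each hold 2 separate arrays, and in HSPD1 the units run on without a gap, so that 2 matches overlap. The matches of DNAJB1, HSP90AA1, HSP90AB1 and HSPD1 belong to windows at an inner start site, not to the outermost one, and a further 2-unit match just after another DNAJB1 start is not shown. HSPD1 and HSPE1 are transcribed away from each other, and the 104 bases between their outermost starts hold neither motif and are 74% G or C. The HSPD1 stretch also lies upstream of the HSPE1 start at 197500379. It falls just outside the HSPE1 window, which begins at 197500129. A match describes letters and is not a bound site.

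HSPA8 (ENSG00000109971, chromosome 11, 123057489 to 123063230, hg38), the constitutive HSP70 of the cytosol and nucleus, was highest with mutation 1 and lowest with mutation 3. Its level was 2890, 2940 and 2857 CPM (counts scaled to library size by TMM) with mutation 1, 1951, 1909 and 1922 CPM with mutation 2, 1119, 1145 and 1122 CPM with mutation 3, and 1768, 1631 and 1708 CPM in wild type. The 4 groups did not overlap, in the order mutation 1, mutation 2, wild type, mutation 3. HSPA8 rose with mutation 1 by 0.77 on the log2 scale (SE 0.05, adjusted p = 2.31e-07) and fell with mutation 3 by 0.59 (adjusted p = 3.01e-06), where adjusted p under 0.05 counts as a call. In bulk RNA, a change in every cell and a change in the share of cells that express a gene cannot be told apart. With mutation 2 it was higher than wild type by 0.18 (adjusted p = 0.0159). That small difference missed the threshold with upper quartile scaling (adjusted p = 0.0578), without the filter (0.087), in a fit of these 2 groups only (0.153), and when wild-type replicate 2, mutation 2 replicate 1 or any library of mutations 1 and 3 was left out (0.0602 to 0.069).

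HSPA1A and HSPA1B (ENSG00000204389 and ENSG00000204388, chromosome 6, 31815464 to 31817946 and 31827735 to 31830255), the heat-inducible HSP70 genes, were listed at 0 counts in all 12 libraries. The surrounding region was nearly empty as well. Within 1 Mb of HSPA1A, 74 of 96 protein-coding genes (77.1%) were at 0 in every library, against 170 of 937 (18.1%) on the rest of chromosome 6. The annotated transcripts of HSPA1A and HSPA1B share an identical run of 1715 bases, and the deposited counts leave out reads below a mapping quality of 10. Gene IDs without a symbol were not used. The part of any of these in the 0 was not tested. The 0 is reported as listed, and 3 counts in the smallest library would be 0.222 CPM. No level, order or fold is given for either gene.

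HSPH1 (ENSG00000120694, chromosome 13, 31134974 to 31162388), the HSP110 protein that resets HSP70, moved in another pattern from HSPA8. It lay at 103, 108.8 and 108.1 CPM with mutation 1, 202.7, 189.9 and 199.3 CPM with mutation 2, 87.1, 84.0 and 89.1 CPM with mutation 3, and 162, 204.2 and 187.5 CPM in wild type. All 6 libraries of mutations 1 and 3 were below all wild-type libraries, and those of mutation 2 overlapped wild type. HSPH1 fell with mutation 1 by 0.79 (SE 0.08, adjusted p = 5.77e-06) and with mutation 3 by 1.09 (SE 0.08, adjusted p = 1.05e-06). With mutation 2 the difference was 0.10 (95% interval -0.06 to 0.25, adjusted p = 0.358). HSPH1 was higher with mutation 1 than with mutation 3 by 0.30 (adjusted p = 0.0105).

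DNAJB1 (ENSG00000132002, chromosome 19, 14514770 to 14529770), the heat-induced HSP40 that delivers clients to HSP70, had the largest rise with mutation 1 among the 8 genes after HSPB1. Levels were 628.7, 592.6 and 617 CPM with mutation 1, 179.1, 186.9 and 173.1 CPM with mutation 2, 131.7, 135.4 and 131.2 CPM with mutation 3, and 180.7, 197.1 and 192 CPM in wild type. The mutation 1 libraries lay at 592.6 CPM or more and the 9 others at 197.1 CPM or less, and mutation 2 overlapped wild type. DNAJB1 rose 3.23-fold with mutation 1 (log2 1.69, SE 0.06, adjusted p = 2.8e-09) and fell with mutation 3 (log2 -0.52, SE 0.05, adjusted p = 1.6e-05). With mutation 2 the log2 difference was -0.08 (adjusted p = 0.271), and -0.11 without wild-type replicate 1 (adjusted p = 0.00403). TECR lies on the opposite strand over 5.75% of the DNAJB1 exon bases, and counting did not use strand.

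HSPB1 (ENSG00000106211, chromosome 7, 76302544 to 76304295), the small heat shock protein HSP27, varied most. It had 712.1, 665.2 and 725.6 CPM with mutation 1, 189.9, 186.8 and 198.7 CPM with mutation 2, 195.3, 183.5 and 176.7 CPM with mutation 3, and 286.9, 115.1 and 111.5 CPM in wild type. Mutation 1 stood above every other library, whereas the libraries of mutations 2 and 3 lay below the first wild-type replicate and above the second and the third. The rise with mutation 1 was 4.1-fold (log2 2.03, SE 0.30, adjusted p = 0.000125), and 2.63 on the log2 scale without wild-type replicate 1. Differences from wild type were 0.16 with mutation 2 (adjusted p = 0.689) and 0.11 with mutation 3 (adjusted p = 0.753). Without wild-type replicate 1 both became calls, at 0.77 (adjusted p = 4.53e-36) and 0.72 (adjusted p = 1.18e-33), while without wild-type replicate 3 they were -0.07 and -0.12. No direction is given for those 2 mutations.

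**Figure D1:**
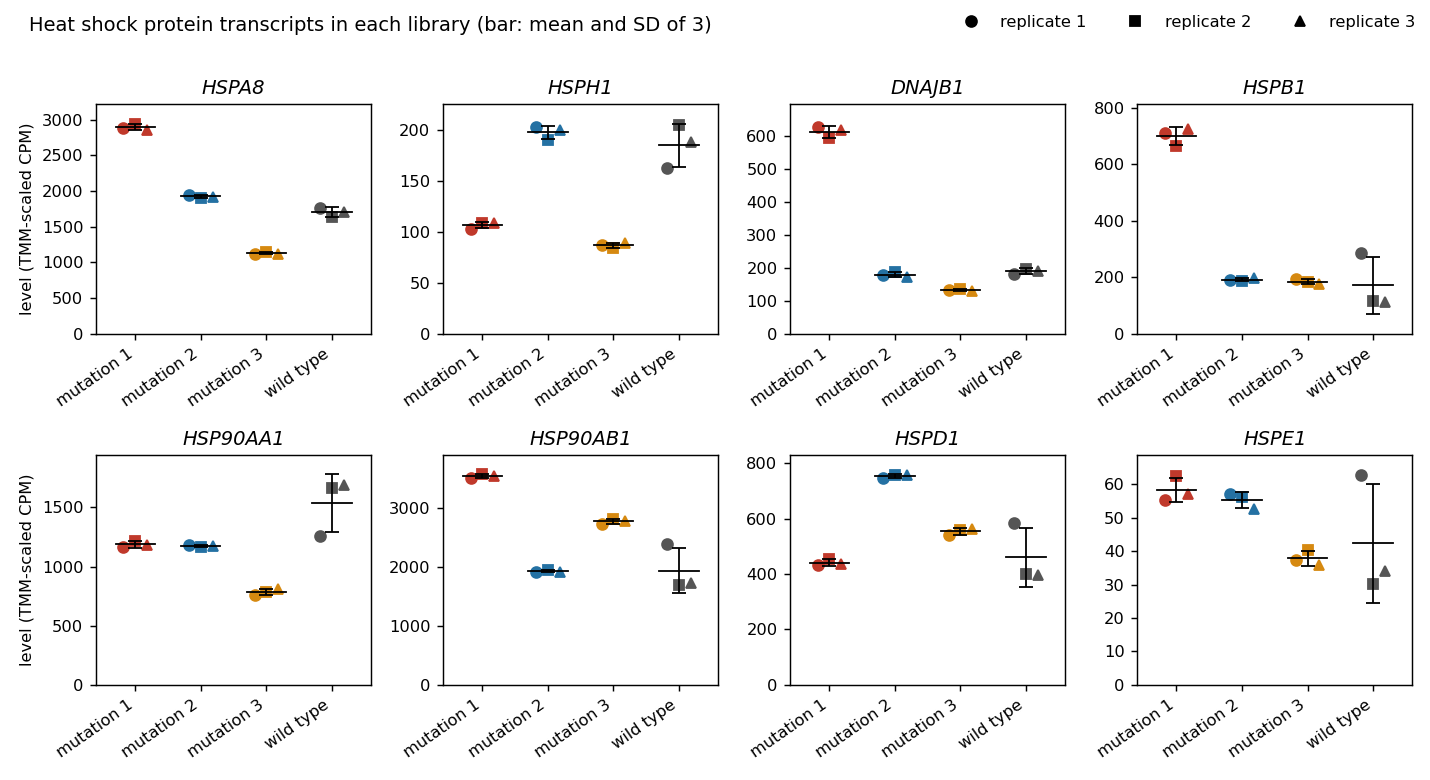
Levels of the 8 counted genes (y axis, TMM-scaled CPM from 0) in the libraries of mutation 1, mutation 2, mutation 3 and wild type, with 1 point per library and bars for mean and SD (n = 3). The circle of wild type, replicate 1, lies apart from the square and triangle for HSPB1, HSP90AA1, HSP90AB1, HSPD1 and HSPE1, while the 3 libraries of each mutation stay close together.

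The HSP90 genes went in different directions. HSP90AA1 (ENSG00000080824, chromosome 14, 102080738 to 102139699), the inducible HSP90 alpha, lay at 1163, 1217 and 1180 CPM with mutation 1, 1181, 1163 and 1171 CPM with mutation 2, 757.4, 788.4 and 807 CPM with mutation 3, and 1258, 1664 and 1687 CPM in wild type. Every mutant library was below every wild-type library, of which replicate 1 was the closest to the mutants. HSP90AA1 fell with mutation 1 by 0.37 (SE 0.10, adjusted p = 0.0051), with mutation 2 by 0.39 (SE 0.10, adjusted p = 0.00891) and with mutation 3 by 0.97 (SE 0.10, adjusted p = 1.07e-05). The fall with mutation 2 had an adjusted p of 0.0854 when these 2 groups alone were fitted. Mutations 1 and 2 overlapped, with a difference of 0.02 (95% interval -0.17 to 0.21, adjusted p = 0.876).

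HSP90AB1 (ENSG00000096384, chromosome 6, 44246166 to 44253888), the constitutive HSP90 beta, lay at 3522, 3580 and 3550 CPM with mutation 1, 1920, 1950 and 1926 CPM with mutation 2, 2739, 2815 and 2791 CPM with mutation 3, and 2389, 1707 and 1736 CPM in wild type. The libraries of mutation 1 and then mutation 3 were above all others, and mutation 2 fell inside the wild-type range. HSP90AB1 rose with mutation 1 by 0.87 (SE 0.11, adjusted p = 3.56e-05) and with mutation 3 by 0.52 (SE 0.11, adjusted p = 0.00183), the second at adjusted p = 0.0516 in a fit of those 2 groups. With mutation 2 the difference was -0.01 (adjusted p = 0.96) with all libraries and 0.17 (adjusted p = 1.05e-08) without wild-type replicate 1. It was higher with mutation 1 than with mutation 3 by 0.35 (adjusted p = 0.0224), and their libraries did not overlap. The call was lost when any library of either group was left out (adjusted p = 0.0732 to 0.0921). Without wild-type replicate 1, which shares in the spread of the fit, the adjusted p was 1.48e-28.

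The balance of the HSP90 genes was read within each library, where scaling cancels. HSP90AA1 had 0.33, 0.34 and 0.332 counts per HSP90AB1 count with mutation 1, 0.615, 0.596 and 0.608 with mutation 2, 0.277, 0.28 and 0.289 with mutation 3, and 0.526, 0.975 and 0.972 in wild type. The libraries of mutations 1 and 3 had the lowest ratios of the 12, and those of mutation 2 lay above wild-type replicate 1 and below its fellow replicates. For the HSP70 partners, DNAJB1 per HSPA8 was 0.212 ± 0.00883 with mutation 1, 0.0933 ± 0.00413 with mutation 2, 0.118 ± 0.00066 with mutation 3 and 0.112 ± 0.00932 in wild type (SD, n = 3 each). HSPH1 per HSPA8 was 0.0368 ± 0.00111 with mutation 1, 0.102 ± 0.0025 with mutation 2, 0.0769 ± 0.00317 with mutation 3 and 0.109 ± 0.0168 in wild type. With mutation 1, HSPA8 had more DNAJB1 and less HSPH1 transcript beside it than in any library of the other groups. These ratios are descriptions, since 3 libraries against 3 cannot give an exact permutation p below 0.10.

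**Figure D2:**
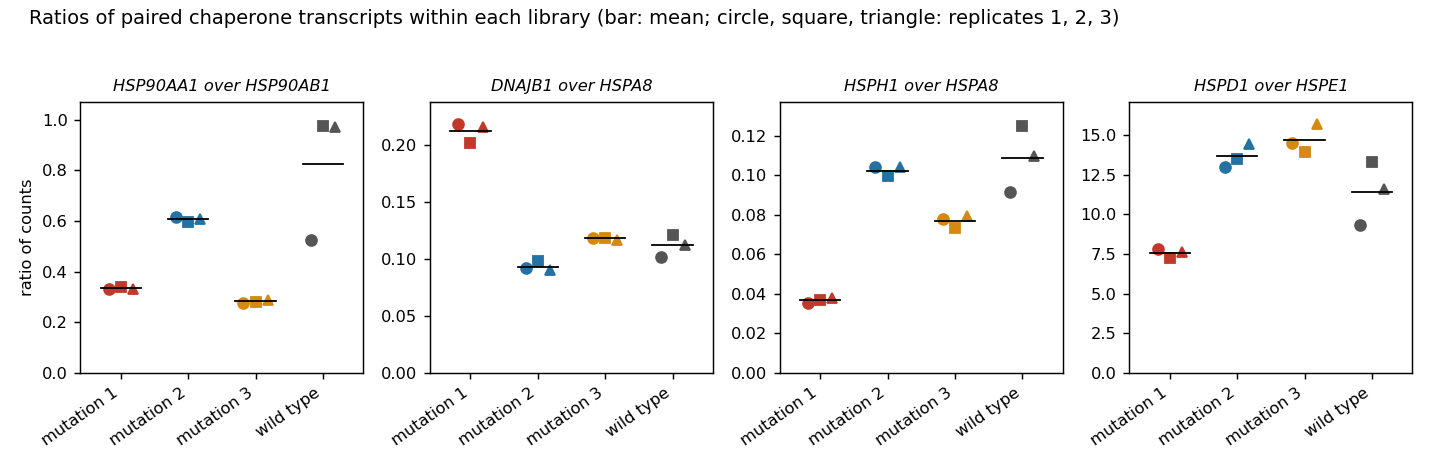
Ratio of counts of paired chaperone genes in each library (y axes from 0, no unit), by mutation 1, mutation 2, mutation 3 and wild type; bars are means. Mutation 1 has the highest DNAJB1 over HSPA8, at 0.212 on average, and the lowest HSPH1 over HSPA8 and HSPD1 over HSPE1, while wild-type replicates 2 and 3 have the highest HSP90AA1 over HSP90AB1, at 0.975 and 0.972.

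HSPD1 (ENSG00000144381, chromosome 2, 197486581 to 197516737, minus strand) and HSPE1 (ENSG00000115541, chromosome 2, 197499994 to 197503457, plus strand) encode the barrel and the lid of the mitochondrial chaperonin. They parted with mutation 1, which had the lowest HSPD1 of the mutations but not the lowest HSPE1. Both were higher with mutation 2 than with mutation 3, for HSPE1 short of the threshold with all libraries. Without wild-type replicate 1, both were called above wild type with every mutation. HSPD1 lay at 433, 454.1 and 435.9 CPM with mutation 1, 745.8, 758.2 and 756.8 CPM with mutation 2, 539.4, 559.9 and 561.6 CPM with mutation 3, and 584.2, 400.2 and 396 CPM in wild type. Mutation 2 was above all other libraries and the other mutations overlapped wild type. HSPD1 rose with mutation 2 by 0.71 (SE 0.12, adjusted p = 0.00137). Differences of -0.06 with mutation 1 (adjusted p = 0.673) and 0.27 with mutation 3 (adjusted p = 0.0849) did not pass, and without wild-type replicate 1 they were 0.15 (adjusted p = 3.94e-06) and 0.48 (adjusted p = 1.4e-31). HSPD1 was also higher with mutation 2 than with mutation 3 by 0.44 (adjusted p = 0.0111). The adjusted p was 0.0591 without mutation 3 replicate 1 and 4.14e-34 without wild-type replicate 1.

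HSPE1 had 55.4, 62.4 and 57.2 CPM with mutation 1, 57.2, 56.2 and 52.5 CPM with mutation 2, 37.3, 40.3 and 35.9 CPM with mutation 3, and 62.8, 30.1 and 34.2 CPM in wild type. Wild-type replicate 1 was the highest of the 12 libraries and wild-type replicates 2 and 3 were the lowest, so every mutation overlapped wild type. Against wild type, HSPE1 differed by 0.46 with mutation 1 (adjusted p = 0.0777), by 0.39 with mutation 2 (adjusted p = 0.187) and by -0.16 with mutation 3 (adjusted p = 0.545). Without wild-type replicate 1 the differences were 0.87, 0.79 and 0.25, all calls (adjusted p = 4.93e-27, 9.98e-24 and 0.000497). HSPE1 was higher with mutation 1 than with mutation 3 by 0.62 (adjusted p = 0.0391, and 3.34e-20 without wild-type replicate 1). The call was lost when any mutant library was left out (adjusted p = 0.0564 to 0.125), with upper quartile scaling (0.0513) and without the filter (0.133). With mutation 2 it was higher than with mutation 3 by 0.55 (adjusted p = 0.0544), and this passed without any 1 wild-type library (adjusted p = 5.2e-17 to 0.046). Other genes share 23.9% of the HSPE1 exon bases, among them HSPD1 on the opposite strand (14.2%), so its level is uncertain. HSPD1 had 7.57 ± 0.276 counts per HSPE1 count with mutation 1, 13.7 ± 0.704 with mutation 2, 14.7 ± 0.905 with mutation 3 and 11.4 ± 2 in wild type (SD, n = 3 each).

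With mutation 1, 6 of the 8 counted genes passed the test against wild type (4 higher, 2 lower), where 69% of all tested genes did (32.5% higher, 36.5% lower). With mutation 2, 3 passed (2 higher, 1 lower) against 37% of all genes (16.9% higher, 20.1% lower), and with mutation 3, 5 passed (1 higher, 4 lower) against 59.3% (28.1% higher, 31.2% lower). These shares, 6, 3 and 5 of 8, lie near the background. Without wild-type replicate 1 the counts were 8 (6 higher, 2 lower), 7 (5 higher, 2 lower) and 8 (4 higher, 4 lower), and the shares of all genes were 82.7%, 67.9% and 77.1%. The median log2 fold change of the 8 was 0.61 with mutation 1, 0.13 with mutation 2 and -0.34 with mutation 3, beside -0.04, -0.01 and -0.01 over all genes tested. The medians of the 8 without wild-type replicate 1 were 0.84, 0.19 and -0.15. The 3 comparisons share the wild-type libraries and are not independent of each other.

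**Figure D3:**
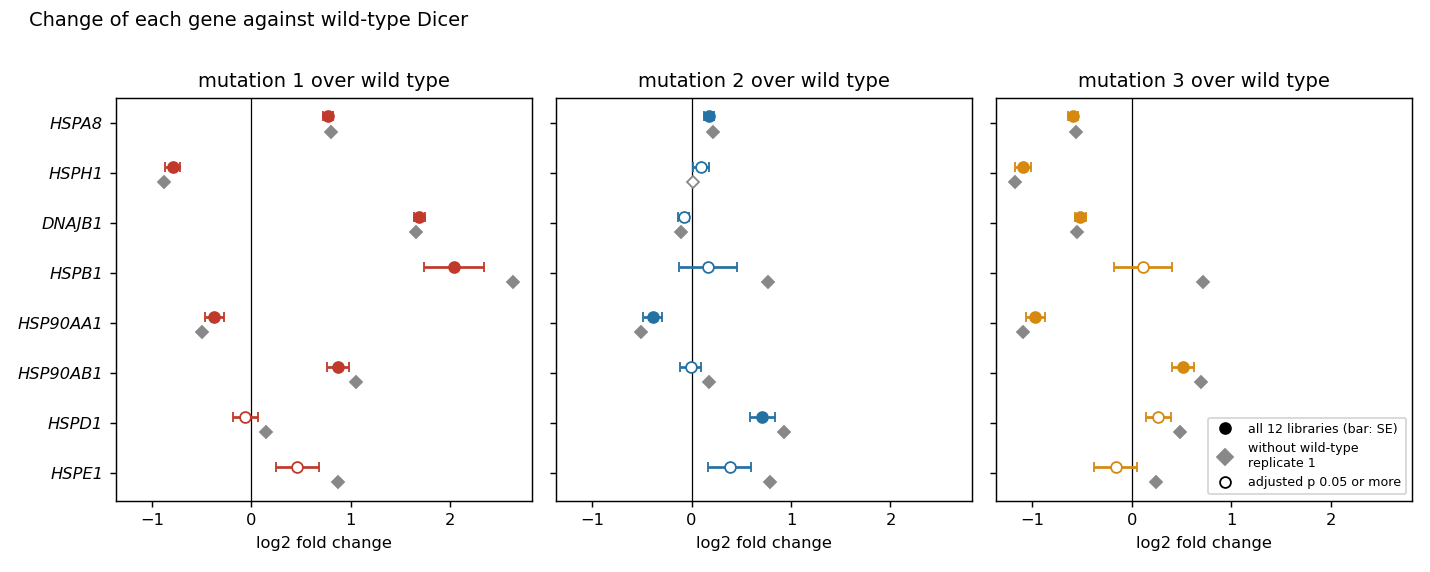
Log2 fold change of each gene with mutation 1, 2 or 3 over wild type. Coloured circles with SE bars come from all 12 libraries and grey diamonds from the fit without wild-type replicate 1; open symbols have an adjusted p of 0.05 or more. DNAJB1 and HSPB1 lie furthest right for mutation 1, at 1.69 and 2.03, and the diamonds of HSPB1 and HSPE1 lie right of their circles in all 3 panels.

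The mutants were also compared directly, without the wild-type values entering the difference. The wild-type libraries did enter the spread, which came from 1 fit of all 12 libraries. Mutation 1 was called above mutation 3 for 7 of the 8 genes and below it for none. Of all genes, 42.8% were called in either direction (20.2% higher, 22.5% lower). The calls of HSP90AB1 and HSPE1 were lost when any library of either group was left out. The differences were largest for DNAJB1 (612.8 ± 18.4 against 132.8 ± 2.28 CPM, SD, n = 3 each, log2 2.21, adjusted p = 5.34e-09), HSPB1 (1.92, adjusted p = 0.000457) and HSPA8 (1.36, adjusted p = 3.37e-08). HSPD1 was the exception, at -0.33 (adjusted p = 0.0531), and was called without any 1 of the wild-type libraries (adjusted p = 3.12e-22 to 0.0372). Mutation 1 against mutation 2 gave 6 calls, 4 higher (HSPA8, DNAJB1, HSPB1, HSP90AB1) and 2 lower (HSPH1, HSPD1), where 65.4% of all genes were called (31.8% higher, 33.6% lower). Mutation 2 against mutation 3 also gave 6 calls against 52.9% of all genes (27.2% higher, 25.7% lower), with HSPA8, HSPH1, DNAJB1, HSP90AA1 and HSPD1 higher and HSP90AB1 lower. Over all 4 groups together, 7 of 8 differed (83% of all genes), HSPE1 being the other (adjusted p = 0.0528).

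Added up, the 8 genes came to 9553 ± 59.4 CPM with mutation 1, 6409 ± 15.9 with mutation 2, 5691 ± 75.6 with mutation 3 and 6231 ± 402 in wild type (SD, n = 3 each). Every mutation 1 library lay above and every mutation 3 library below all the others, while mutation 2 fell inside the wild-type range of 5949 to 6691 CPM. Per kilobase of exon, which allows a comparison between genes, HSP90AB1 led in each group, at 1191 CPM per kb with mutation 1, 648.4 with mutation 2, 933.5 with mutation 3 and 652.4 in wild type, and HSPA8 was next, at 597.2, 397.5, 232.7 and 351.1. HSPB1 was the third with mutation 1, at 429 ± 19.4 CPM per kb, and the fifth in wild type, at 104.7 ± 61.4, where HSP90AA1 was the third, at 292.8 ± 46.1. HSPH1 was the lowest of the 8 in the mutation groups, at 12.7, 23.5 and 10.3 CPM per kb for mutations 1, 2 and 3, and lay beside HSPE1 in wild type, at 22 and 21.4.

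Transcripts of the heat shock factors and of HSBP1 were counted in the same libraries, while their proteins and activity were not measured. HSF1, the main heat shock factor, had 148.8 ± 3.08 CPM with mutation 1, 113.1 ± 2.01 with mutation 2, 126.9 ± 5.78 with mutation 3 and 103.7 ± 0.92 in wild type (SD, n = 3 each), and its wild-type replicates lay within 103 to 104.7 CPM. It rose with mutation 1 (log2 0.52, adjusted p = 4.62e-06) and mutation 3 (0.29, adjusted p = 0.000505), and the difference of 0.13 with mutation 2 had an adjusted p of 0.0715 (0.00405 without wild-type replicate 1). HSF2, a second factor that can pair with HSF1, rose with all 3 mutations, to 33.8, 37.5 and 52.1 CPM with mutations 1, 2 and 3, against 24.6 CPM in wild type (log2 0.46, 0.61 and 1.08, adjusted p = 0.000369, 0.000216 and 1.03e-06). HSF4, a factor best known from the lens, fell with mutation 2 to 8.09 CPM (log2 -0.93, adjusted p = 0.0239) and rose with mutation 3 to 28.6 CPM (0.90, adjusted p = 0.0141, and 0.57 without wild-type replicate 1), against 15.3 CPM in wild type. HSBP1, a small protein that binds HSF1, fell with mutation 1 (-0.30, adjusted p = 0.0166) and mutation 2 (-0.72, adjusted p = 0.000258).

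In a list of 13 other genes known to respond to heat, 8 rose and 2 fell with mutation 1. In this list, 3 rose and 4 fell with mutation 2, and 5 rose and 4 fell with mutation 3. Their median log2 fold changes were 0.54, 0.05 and 0.31. Of all tested genes, 32.5% rose and 36.5% fell with mutation 1, 16.9% and 20.1% with mutation 2, and 28.1% and 31.2% with mutation 3. These shares are the background for the lists that follow as well. ATF3, a stress-induced transcription factor, rose with mutation 1 (27.2 against 6.09 CPM in wild type, log2 2.16, adjusted p = 8.03e-06) and mutation 3 (12.2 CPM, log2 1.01, adjusted p = 0.00255). SQSTM1, the autophagy receptor p62, rose with all 3 mutations, by 1.25 (adjusted p = 3.69e-06), 0.50 (adjusted p = 0.00632) and 1.41 (adjusted p = 2.91e-06) for mutations 1, 2 and 3. CHAC1, an enzyme that degrades glutathione, went the other way, to 0.379 CPM with mutation 1, 6.6 CPM with mutation 2 and 0.931 CPM with mutation 3, against 18.3 CPM in wild type (log2 -5.63, -1.48 and -4.28, adjusted p = 5.6e-06, 0.0133 and 2.5e-05). With wild-type replicate 1 left out, 10 rose and 2 fell with mutation 1, 7 rose and 6 fell with mutation 2, and 8 rose and 4 fell with mutation 3. The medians of this list were then 0.52, 0.42 and 0.32. Without that library, 82.7%, 67.9% and 77.1% of all genes were called with mutations 1, 2 and 3, for this list and those that follow. Genes induced by heat also stand in the lists that follow. With mutation 1, HSPA6 rose and DNAJA1 and BAG3 fell there. The counts of this list thus depend on how genes were sorted.

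HSP70 relatives and exchange factors fell more often than they rose with mutation 1, where DNAJB1 and HSPA8 rose. With mutation 3, where DNAJB1 and HSPA8 fell, they also fell more often. Of 16 tested, 3 rose and 11 fell with mutation 1, 4 rose and 5 fell with mutation 2, and 2 rose and 9 fell with mutation 3. Without wild-type replicate 1, 6 rose and 8 fell with mutation 2. HSPA6, an HSP70 made under strong stress, was at 12.2, 13.4 and 10.3 CPM with mutation 1, against 0.787, 1.01 and 0.971 CPM in wild type (log2 3.69, SE 0.35, adjusted p = 4.73e-06). It has a near-identical neighbour, HSPA7, so its level is uncertain. The exchange factor BAG3 fell with mutation 1 (61.5 against 139.7 CPM, log2 -1.18, adjusted p = 4.05e-05) and mutation 3 (75.8 CPM, log2 -0.88, adjusted p = 0.000455), and BAG2 fell with mutation 1 (-1.11, adjusted p = 7.49e-08). Among 14 other J-domain genes, 3 rose and 6 fell with mutation 1, 3 fell with mutation 2 (4 rose and 5 fell without wild-type replicate 1), and 5 rose and 7 fell with mutation 3. DNAJA1, another cytosolic HSP40, fell with mutation 1, where DNAJB1 rose, to 108.4 ± 4.65 CPM, against 312.8 ± 17.9 CPM in wild type (log2 -1.53, SE 0.06, adjusted p = 6.52e-09).

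Of 15 HSP90 co-chaperones, 4 rose and 8 fell with mutation 1, 5 rose and 5 fell with mutation 2, and 4 rose and 9 fell with mutation 3. CHORDC1, which binds HSP90, rose with mutation 1 (1.52, adjusted p = 1.55e-08) and mutation 2 (0.59, adjusted p = 0.000108), while the prolyl isomerases FKBP5 (-1.57, adjusted p = 4.4e-05) and PPID (-1.38, adjusted p = 2.05e-08) fell with mutation 1. For TRiC, the cytosolic chaperonin, and its partner prefoldin, 8 of 13 fell and none rose with mutation 1, 4 rose and 3 fell with mutation 2, and 6 fell and none rose with mutation 3. CCT5 (-1.19, adjusted p = 5.54e-08), CCT3 (-1.14, adjusted p = 9.94e-09) and CCT2 (-1.10, adjusted p = 3.84e-06) were the largest falls with mutation 1. Without wild-type replicate 1, 3 of these 13 rose and 8 fell with mutation 1, 7 rose and 4 fell with mutation 2, and 5 rose and 7 fell with mutation 3.

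Chaperones of other compartments were listed beside HSPD1 and HSPE1. Of 14 other mitochondrial chaperones and proteases, 3 rose and 3 fell with mutation 1, 6 rose and 2 fell with mutation 2, and 1 rose and 3 fell with mutation 3; without wild-type replicate 1 the counts were 7 and 5, 7 and 4, and 5 and 5. GRPEL1, the exchange factor of the mitochondrial HSP70, fell with mutation 1 (-1.75, adjusted p = 8.9e-09). Of 14 endoplasmic reticulum chaperones, 10 rose and 1 fell with mutation 1, 1 rose and 5 fell with mutation 2, and 5 rose and 5 fell with mutation 3; without wild-type replicate 1 the counts were 11 and 2, 8 and 5, and 8 and 5. HSPA5, the HSP70 of that compartment, had 3794, 3830 and 3828 CPM with mutation 1, against 1269, 933.1 and 930.7 CPM in wild type (log2 1.87, adjusted p = 8.59e-08), and HSP90B1, its HSP90, rose by 1.52 (adjusted p = 4.07e-06). Of the 6 small heat shock proteins other than HSPB1, only HSPB8 passed the filter, at 3.2 CPM with mutation 1, 8.79 with mutation 2, 1.1 with mutation 3 and 4.46 ± 4.84 in wild type. Its log2 differences were -0.47 with mutation 1 (adjusted p = 0.492), 0.99 with mutation 2 (adjusted p = 0.189) and -2.00 with mutation 3 (adjusted p = 0.0211). The fit without wild-type replicate 1 gave 0.93 for mutation 1 (adjusted p = 0.00021), 2.39 for mutation 2 (adjusted p = 1.52e-23) and -0.61 for mutation 3 (adjusted p = 0.0542), so the calls and, with mutation 1, the sign rest on that library. These lists were chosen with results of the same libraries known, and 69%, 37% and 59.3% of all genes were called in the 3 comparisons.

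**Figure D4:**
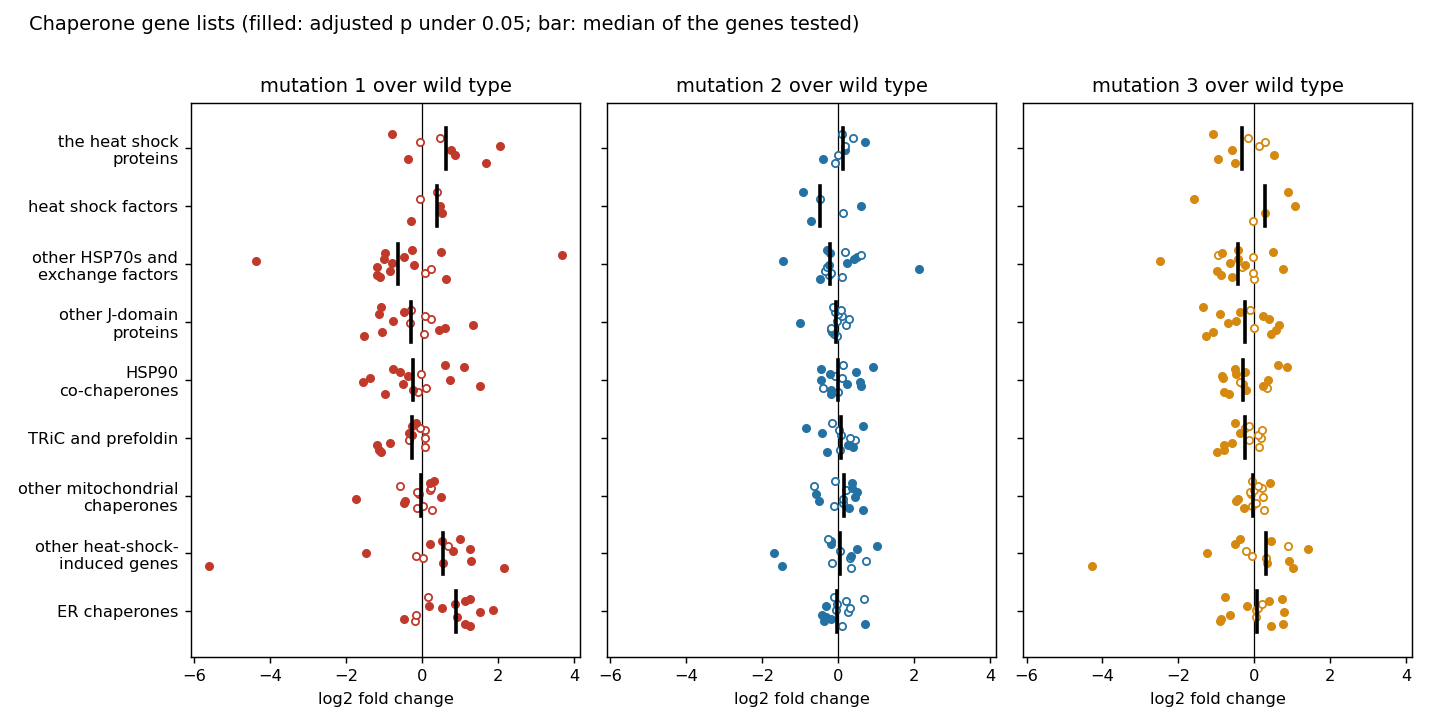
Log2 fold change with mutation 1, 2 or 3 over wild type for the 8 counted heat shock proteins and 8 other chaperone lists, with 1 point per tested gene, filled where the adjusted p is under 0.05, and a bar at the median. With mutation 1 the bars are above 0 for the heat shock proteins (0.61), the heat shock factors (0.40), the other heat-induced genes (0.54) and the endoplasmic reticulum (ER) chaperones (0.89), and below 0 for other HSP70s (-0.64), J-domain genes (-0.31), TRiC and prefoldin (-0.27), HSP90 co-chaperones (-0.24) and mitochondrial chaperones (-0.04). The median of all genes tested was -0.04. Without wild-type replicate 1 (not drawn), the medians above 0 became 0.84, 0.07, 0.52 and 0.97, in the same order. The others became -0.63, -0.20, -0.13, -0.25 and, for mitochondrial chaperones, 0.04.

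The pattern over the 12 libraries was compared with every tested gene by the root mean square difference of centred log2 CPM. The closest gene to HSPA8 was LGALS3BP (0.123), to HSPH1 SAMHD1 (0.0729), to DNAJB1 TENM3 (0.157) and to HSPB1 MSLN (0.183). For HSP90AA1 it was RB1 (0.0788), for HSP90AB1 PABPC1 (0.0546), for HSPD1 PSME4 (0.0547) and for HSPE1 LAPTM4B (0.114). None of the 24 nearest genes, 3 for each, was one of the 8. HSPH1 and HSP90AA1 had the smallest distance among the 8, at 0.33. For DNAJB1 and HSPB1, which varied more, the distance to each other was 0.443, and HSPB1 ranked 87 among all genes by closeness to DNAJB1. For HSP90AB1 the nearest of the 8, HSPE1, came at rank 4005. The libraries share groups and scaling, so these distances describe the samples and carry no p.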

How the data were processed

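The authors deposited raw counts per gene for 12 libraries of poly(A) RNA, 3 each from MDA-MB-231 cells transfected with Dicer carrying mutation 1, 2 or 3, or wild-type Dicer. Per the file headers, the counts were made with featureCounts 2.0.6, without strand, over exons of the hg38 Ensembl genes, with a minimum mapping quality of 10. Other tools in the submitters' processing notes were cutadapt 1.9.1 and FastQC 0.11.8, and DESeq2, SAMtools and STAR, whose versions are not given in the sources used here. Unstranded counting cannot separate overlapping genes, and the mapping limit drops reads that match several places.

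Symbols were found for 56105 of 64252 IDs (87.3%, holding 99.61% of counts). Positions are from GENCODE v29. Groups followed the genotype label, and libraries held 13507341 to 17078273 counts. The closest replicates differed by 1.253 times sampling noise (chi-square per degree of freedom), so none was merged.

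Each pair of groups was tested with edgeR 4.0.16 quasi-likelihood tests (R 4.3.3; TMM, robust) in 1 fit of all 12 libraries with 8 residual degrees of freedom, over 15094 genes kept by filterByExpr (minimum count 10, minimum total 15). The p-values were adjusted by Benjamini-Hochberg over all of them and called under 0.05. The SE is the log2 fold change over the square root of F. The procedure was tested on simulated data. CPM is counts scaled to library size by TMM; distances between genes used log2 CPM with a prior count of 2.

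Alternatives were DESeq2 size factors, upper quartile scaling, leaving out mitochondrial genes, DESeq2 1.42.0, limma-voom (limma 3.58.1) with quality weights, no filter, at least 1 CPM in 3 libraries, fits of 2 groups only and leaving out each library. The genes and lists were chosen with earlier results of these data known. Besides the 10 genes, HSF1, HSF2 and DICER1, the rule made eligible up to 3 called genes per list and mutation with the largest change and at least 5 CPM in the higher group, and the 3 genes nearest each of the 8; HSPB8 was named after its values were seen, as the only tested gene of its list. Promoters are from RefSeq (GRCh38.p14); all 10 genes matched. Printed stretches are at most 30 bases.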

Additional observations from a re-analysis of the deposited data

How the results depend on the processing

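Of 960 values of the 8 genes under the alternatives, 894 kept direction and side of the threshold, 31 lost the call, 24 gained it and 11 changed sign, none of them a call with all libraries. Of the 960, 576 came from leaving out 1 library, often one of a group outside the comparison. With limma-voom 37 of 48 values kept direction and side, and in fits of 2 groups only 42 of 48 did. The sign changes were HSPD1 with mutation 1 (0.14 with limma-voom, 0.15 without wild-type replicate 1), HSP90AB1 with mutation 2 (0.16 with limma-voom, 0.0069 in the fit of 2 groups, 0.17 without wild-type replicate 1), HSPE1 with mutation 3 (0.24 with limma-voom, 0.25 without wild-type replicate 1), and HSPB1 without wild-type replicate 2 or 3 (-0.06 and -0.070 with mutation 2, -0.11 and -0.12 with mutation 3). Leaving out 1 library at a time, these results ran from -0.16 to 0.15 (HSPD1), -0.10 to 0.17 (HSP90AB1), -0.36 to 0.25 (HSPE1), -0.070 to 0.77 (HSPB1 with mutation 2) and -0.12 to 0.72 (HSPB1 with mutation 3). Genes called of the 8 with mutation 2 were 3 with all libraries, 7 with limma-voom and 1 in the fit of 2 groups, and with mutation 3 they were 5, and 8 with limma-voom. Over all genes, mutation 2 gave 5588, 10572 and 2589 calls under the same settings, and mutation 1 against mutation 3 gave 6454, 10332 and 10073. The causes were not tested.

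Leaving out 1 library at a time gave 6 to 8, 2 to 7 and 5 to 8 calls among the 8 genes for mutations 1, 2 and 3 over wild type, and 9644 to 13064, 4208 to 10726 and 7969 to 12179 over all genes. Between mutants it gave 6 (1 and 2), 5 to 8 (1 and 3) and 5 to 7 (2 and 3) of the 8, and 8963 to 12677, 5146 to 10521 and 6763 to 11518 of all genes. Among the 4 groups it gave 7 to 8, and 12013 to 15006. The highest counts of all genes came without wild-type replicate 1. Summing HSPA1A and HSPA1B gave no value, as both are at 0. No scaling moved the median of all genes by 0.1. No paired analysis was possible because the labels number the wild-type libraries only.

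Counts of 484 or more per library lie behind each of the 8 genes.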
